A study of Homo sapiens with 3 samples.

Results

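The most distal part of 19q, around band 19q13.43 and up to the chromosome end, was described through its peaks of histone H3 trimethylated at lysine 36 (H3K36me3). The members were all deposited peaks that overlap chromosome 19 from 56000000 to 59128983 in hg19. This rule used coordinates only and no measured value, although the region was chosen with earlier results of these data known. It gave 775 peaks of the 249369 in both lists, 440 of 131801 in cells given dihydrotestosterone (DHT) and 335 of 117568 in untreated cells. The rest of 19q, taken from the first peak after the longest peak-free gap of the chromosome (position 27731698) to the edge of the region, held 2453 DHT and 2007 untreated peaks.

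The cells were LNCaP, an established androgen-responsive line from prostate cancer. The DHT library came from cells kept for 4 h with 100 nM DHT, an androgen derived from testosterone, in RPMI that the labels call red-free. The other library came from cells with no treatment in the labels. Cells of both libraries were kept in RPMI with 10% serum. Red-free medium is named with the hormone, for the DHT library only. Whether the untreated cells had the same medium is not shown, so the effects of medium and hormone cannot be told apart. An input library is also listed and was not analysed here. There was 1 library per condition, so no test was made and no p-value is given, and how far 2 libraries of the same cells would differ is unknown. Higher and lower below compare those 2 libraries, and intervals are 95% intervals for counting error only, which treat peaks as independent although neighbours are not.

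H3K36me3 is laid down over the bodies of transcribed genes behind elongating RNA polymerase II. Distal 19q is known for tandem arrays of KRAB zinc finger genes, which code for DNA-binding repressors that recruit the corepressor TRIM28 (also called KAP1) and, through it, the histone H3 lysine 9 methyltransferase SETDB1. Genes of this family are known as a setting in which H3K36me3 and the repressive mark H3K9me3 can lie over the same gene body, with zinc finger protein ZNF274 among the proteins that bind zinc finger genes themselves. The gene for TRIM28 lies in the same band. The band is also known for the imprinted gene PEG3 with its neighbours ZIM2 and USP29, and for NLRP genes expressed mainly in oocytes and early embryos.

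The name of the region could be set against gene names only, because the annotation at hand is of another build. In the RefSeq table of GRCh38.p14, the last 100 protein-coding genes of chromosome 19 run from ZNF581 to MZF1, a myeloid zinc finger gene. Of these, 69 carry zinc finger symbols (symbols starting with ZNF, ZSCAN, ZFP, ZIM, ZIK, ZBTB or ZKSCAN, or PEG3 or MZF1), or 69.0%. The share was 14.9% among the other 1351 protein-coding genes of the chromosome (201 genes) and 3.08% among all 20056 (617 genes). In that order, NLRP9, NLRP11, NLRP4, NLRP13, NLRP8 and NLRP5 lie on the side of the centromere, interrupted only by RFPL4A and RFPL4AL1. They are followed by zinc finger genes around ZIM2, PEG3 and USP29. A long run of zinc finger genes from ZNF264 to ZNF8 then holds a few others, among them the kinase gene AURKC and the pheromone receptor gene VN1R1. The last genes are SLC27A5, an acyl-CoA synthetase of bile acid metabolism, ZBTB45, TRIM28, CHMP2A of the ESCRT membrane-sealing machinery, UBE2M of the neddylation pathway and MZF1. This is an order of names. No peak was assigned to a gene, the edges of the region were not translated to that build, and no sequence was read at the peaks.

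The region was densely marked in both libraries. After DHT it held 14.1 peaks per 100 kb, and in untreated cells 10.7. The rest of 19q held 8.68 after DHT and 7.10 in untreated cells. Peaks covered 8.90% of the region after DHT and 10.2% in untreated cells, against 6.10% and 5.59% of the rest of 19q. The region was thus 1.46 times as covered as the rest of the arm after DHT and 1.83 times in untreated cells. When 19q was divided into 10 stretches of the length of this region, 3.13 Mb, it was the second most covered stretch after DHT and the most covered in untreated cells.

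Set against untreated cells, the DHT library had more peaks in the region over less sequence. It held 440 peaks covering 278.6 kb, while untreated cells held 335 peaks covering 320.1 kb. The ratio of DHT over untreated was 1.31 for the number of peaks (1.14 to 1.52) and 0.870 for covered length (0.720 to 1.05). The interval of the length ratio includes 1. In the rest of 19q the number ratio was 1.22 (1.15 to 1.30) and the length ratio 1.09 (1.01 to 1.19). Over all nuclear chromosomes they were 1.12 (1.11 to 1.13) and 1.03 (1.01 to 1.04), so the whole DHT list held more peaks. The length ratio of the region divided by that of the rest of the arm was 0.797 (0.649 to 0.979). The direction of the length ratio depended on how peaks were delimited. With the peaks of each list joined across gaps of up to 5 kb, covered length was 752.7 kb after DHT and 629.0 kb in untreated cells, a ratio of 1.20. For deposited peaks without the most covered 1 Mb, from 58000001 to 59000000, the length ratio was 0.966.

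As deposited, peaks of the region were narrower after DHT than in untreated cells. With each list joined at 5 kb the order of the medians turned, to 2475 bp after DHT and 2300 bp in untreated cells. Median width of the deposited peaks was 469 bp after DHT and 702 bp in untreated cells, with quartiles of 321 and 732 bp after DHT and 371 and 1269 bp in untreated cells. In the rest of 19q the medians were 472 bp after DHT and 537 bp in untreated cells. The region thus had wider peaks than the rest of the arm in the untreated library and peaks of about the same width in the DHT library. Over all nuclear chromosomes the medians were 354 bp after DHT and 374 bp in untreated cells, also narrower after DHT. Peaks under 500 bp numbered 240 after DHT and 130 in untreated cells, a ratio of 1.85 (1.49 to 2.30). Those of 500 bp to 1 kb numbered 136 and 91, a ratio of 1.49 (1.14 to 1.97). At larger widths the untreated library had more of the deposited peaks. The joined lists were not divided by width. Joined at 5 kb they held 172 DHT and 151 untreated pieces in the region, so these counts hold for deposited peaks only. There were 49 DHT and 81 untreated peaks of 1 to 2 kb, a ratio of 0.605 (0.415 to 0.873). Peaks of at least 2 kb numbered 15 after DHT and 33 in untreated cells, a ratio of 0.455 (0.229 to 0.861), and covered 41.4 kb and 95.3 kb.

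The rest of 19q also had more narrow peaks after DHT, and its wide peaks were about as many in both libraries. There the number ratio was 1.40 (1.29 to 1.53) under 500 bp and 1.16 (1.04 to 1.29) from 500 bp to 1 kb. It was 0.943 (0.808 to 1.10) from 1 to 2 kb and 0.955 (0.725 to 1.26) at 2 kb and above. For peaks of 1 to 2 kb the intervals of the region and of the rest of the arm overlap, and likewise at 2 kb and above, and the difference between them was not tested. Over all nuclear chromosomes the ratios for these 4 classes, from narrow to wide, were 1.21, 0.969, 0.843 and 0.889.

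**Figure D1:**
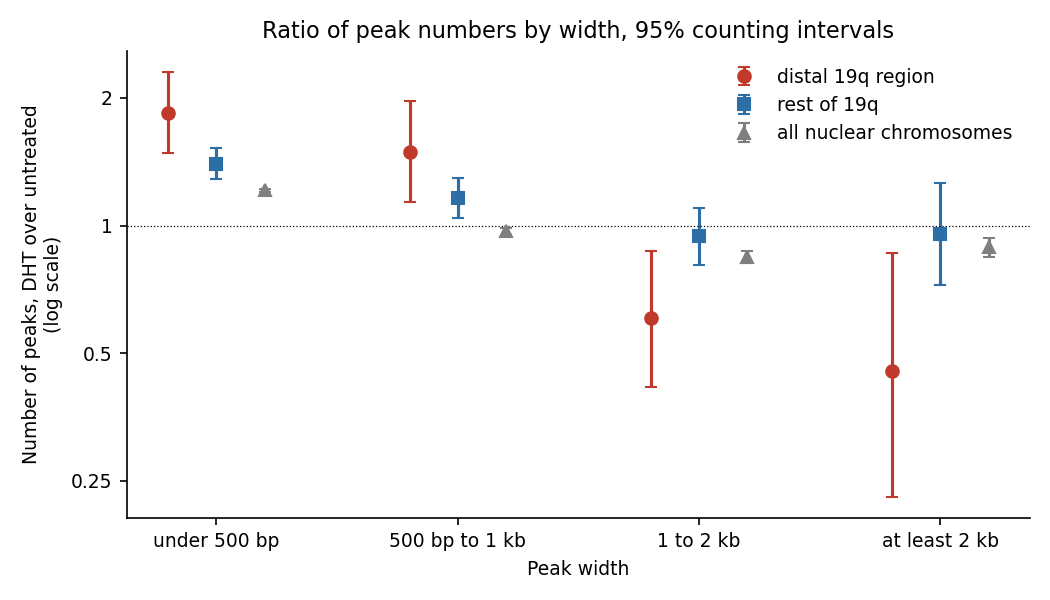
The ratio of peak numbers, DHT over untreated (vertical axis, log scale), is plotted for 4 classes of peak width in the distal 19q region, the rest of 19q and all nuclear chromosomes, with 95% counting intervals as bars. In the region the ratio is 1.85 for the narrowest peaks and 0.455 for the widest.

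Peaks of at least 2 kb were picked by their width in their own list. That choice favours narrower or broken counterparts in the other list, so the same class elsewhere is set beside them. None of the 15 DHT peaks of at least 2 kb was overlapped by more than 1 untreated peak, with 11 overlapped by 1 and 4 by none. The share with more than 1 was thus 0% (0% to 20.4%), beside 9.43% in the rest of 19q and 8.96% over all nuclear chromosomes, and the share with none, 26.7%, compares with 24.5% and 23.3%. Of the 33 untreated peaks of at least 2 kb, 2 were overlapped by no DHT peak, 19 by 1 peak and 12 by 2 or more, or 36.4% (22.2% to 53.4%). Such untreated peaks with 2 or more DHT peaks made up 18.9% (12.7% to 27.2%) in the rest of 19q and 28.1% over all nuclear chromosomes. The intervals of the region include the shares over all nuclear chromosomes, 8.96% for DHT and 28.1% for untreated peaks. Over their summed width, wide DHT peaks were covered by the other library to 64.7% and wide untreated peaks to 58.6%. The rest of 19q had 53.9% and 62.8% by this measure, and all nuclear chromosomes 55.9% and 66.6%. The median share per peak was 95.5% for DHT and 59.9% for untreated peaks in the region, while the rest of 19q had 63.3% and 69.4% and all nuclear chromosomes 66.3% and 73.2%.

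The widest DHT peak of the region, 3989 bp from 59058520 to 59062508, was covered over 99.6% of its width by an untreated peak of 5674 bp. It was followed by 1 of 3603 bp from 56160646 to 56164248, covered over 56.3% by an untreated peak. The third, 3558 bp from 56205221 to 56208778, had no untreated peak at all and was the widest such DHT peak. It scored 106.6, at percentile 64.8 of its list. The fourth and the fifth, of 3515 bp from 56189368 to 56192882 and of 3292 bp from 58753829 to 58757120, lay wholly within untreated peaks.

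The widest untreated peak, 7198 bp from 58752863 to 58760060, was covered over 59.9% of its width by 2 DHT peaks, the longer of them 3292 bp. The next, 5674 bp from 59058536 to 59064209, was covered over 70.0% by a single DHT peak, the widest of its list in the region. A peak of 4770 bp from 58796106 to 58800875 was covered over 21.9% by 1 DHT peak of 1044 bp. The 2 others, of 3991 bp from 56188909 to 56192899 and of 3529 bp from 57984947 to 57988475, were covered over 88.1% by 1 DHT peak and over 31.8% by 2. Of the 5 widest peaks, 3 lay in the first 0.9 Mb of the region after DHT and 1 in untreated cells. This limit was set after the windows described below had been seen.

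**Figure D2:**
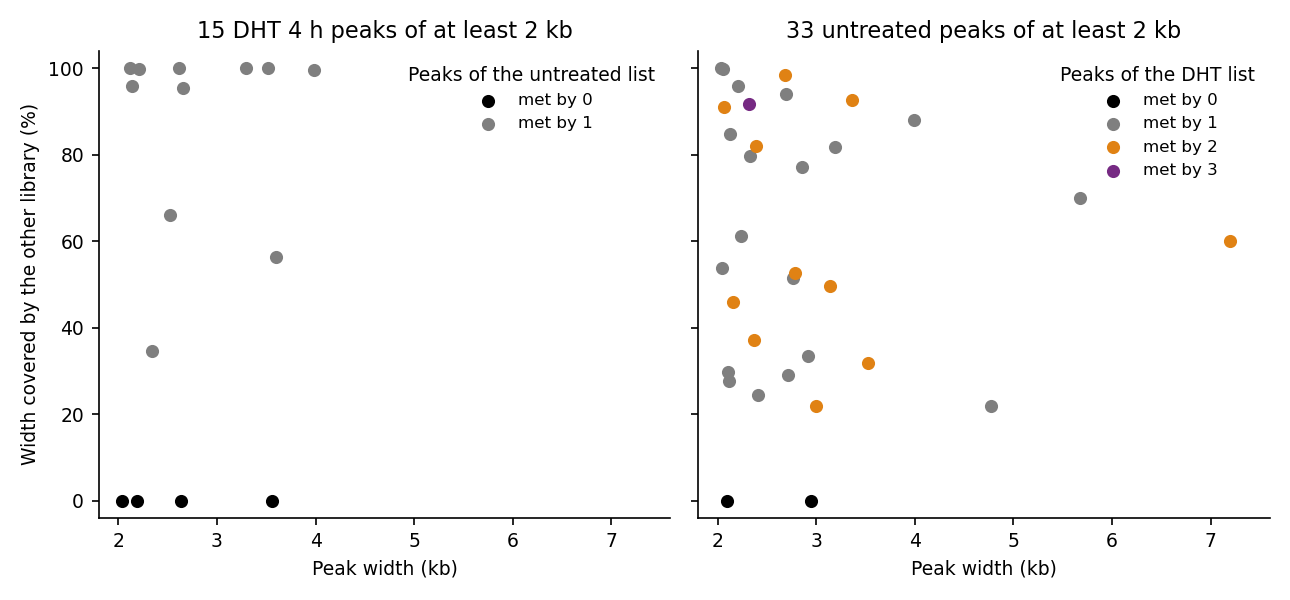
Each point is a peak of at least 2 kb, at its width in kb (horizontal axis) and the percentage of that width covered by peaks of the other library (vertical axis), for the 15 DHT peaks on the left and the 33 untreated peaks on the right. Colours give how many peaks of the other list meet it, which is at most 1 for DHT peaks and up to 3 for untreated peaks.

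Nearly all of the 100 kb windows of the region held the mark. Of 32 windows, 31 held peaks of both libraries. The last, from 59100001 to the end of the chromosome, held none. Coverage was higher after DHT in 14 windows and lower in 17, while the number of peaks was higher after DHT in 24, lower in 4 and equal in 3. In 11 windows the DHT library had more peaks over less sequence. The same was found in 28 of 255 windows with peaks in the rest of 19q and in 1688 of 19726 over the genome. Of those 255 and 19726 windows, 100 and 9715 were less covered after DHT, and 162 and 10135 held more peaks. In the region, coverage reached 10% in 14 windows after DHT and in 17 windows of untreated cells, and all 14 were among these 17. Of the 282 windows in the rest of 19q, 24.8% reached this level after DHT and 21.3% in untreated cells, against 43.8% and 53.1% in the region. Median coverage of a window was 8.25% after DHT and 11.2% in untreated cells. Across the 32 windows the libraries gave r = 0.923 and rho = 0.923, with the empty window included, and across the 282 windows of the rest of the arm r = 0.920 and rho = 0.937.

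The most covered window of both libraries was the same. From 58700001 to 58800000, peaks covered 22.8% after DHT and 32.3% in untreated cells, which was rank 81 and rank 3 among 30941 windows of the genome. After DHT it was followed by the windows starting at 56100001 (18.95%), 58900001 (16.5%), 59000001 (16.3%) and 58300001 (16.1%). In untreated cells the order was 58900001 (21.3%), 58000001 (20.04%), 58800001 (18.7%) and 59000001 (16.7%). The thinnest windows with peaks were also shared. The window from 57200001 had 0.901% covered after DHT and 0.852% in untreated cells, with 3 peaks each, and that from 56400001 had 1.08% and 0.615%, with 4 and 2 peaks.

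The largest differences were windows less covered after DHT. From 58700001 to 58800000 the difference was -9.47 percentage points, the 7th most negative among all genome windows, with 23 DHT and 15 untreated peaks. From 58000001 to 58100000 peaks covered 12.6% after DHT and 20.04% in untreated cells, a difference of -7.41 points. The neighbouring window from 58100001 was covered over 6.84% and 12.8%, a difference of -5.95 points. The window from 58800001 was covered over 12.8% after DHT and 18.7% in untreated cells, also a difference of -5.95 points, and that from 56900001 over 10.5% and 15.5%, or -5.04 points. These 5 windows were all among the 100 windows of the genome with the most negative differences. A ranking in points favours windows that were well covered in untreated cells, as these were.

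Windows more covered after DHT differed less and lay mostly in the first 0.9 Mb, a limit set after these windows had been seen. From 56200001 to 56300000 peaks covered 5.70% after DHT and 2.13% in untreated cells, a difference of 3.57 points. This window holds the 3558 bp DHT peak without an untreated counterpart. From 58300001 to 58400000 the values were 16.1% and 12.7%, with 29 and 23 peaks, the most of any window after DHT. The windows from 56100001, 56600001 and 56700001 were higher by 3.04, 2.35 and 1.10 points.

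**Figure D3:**
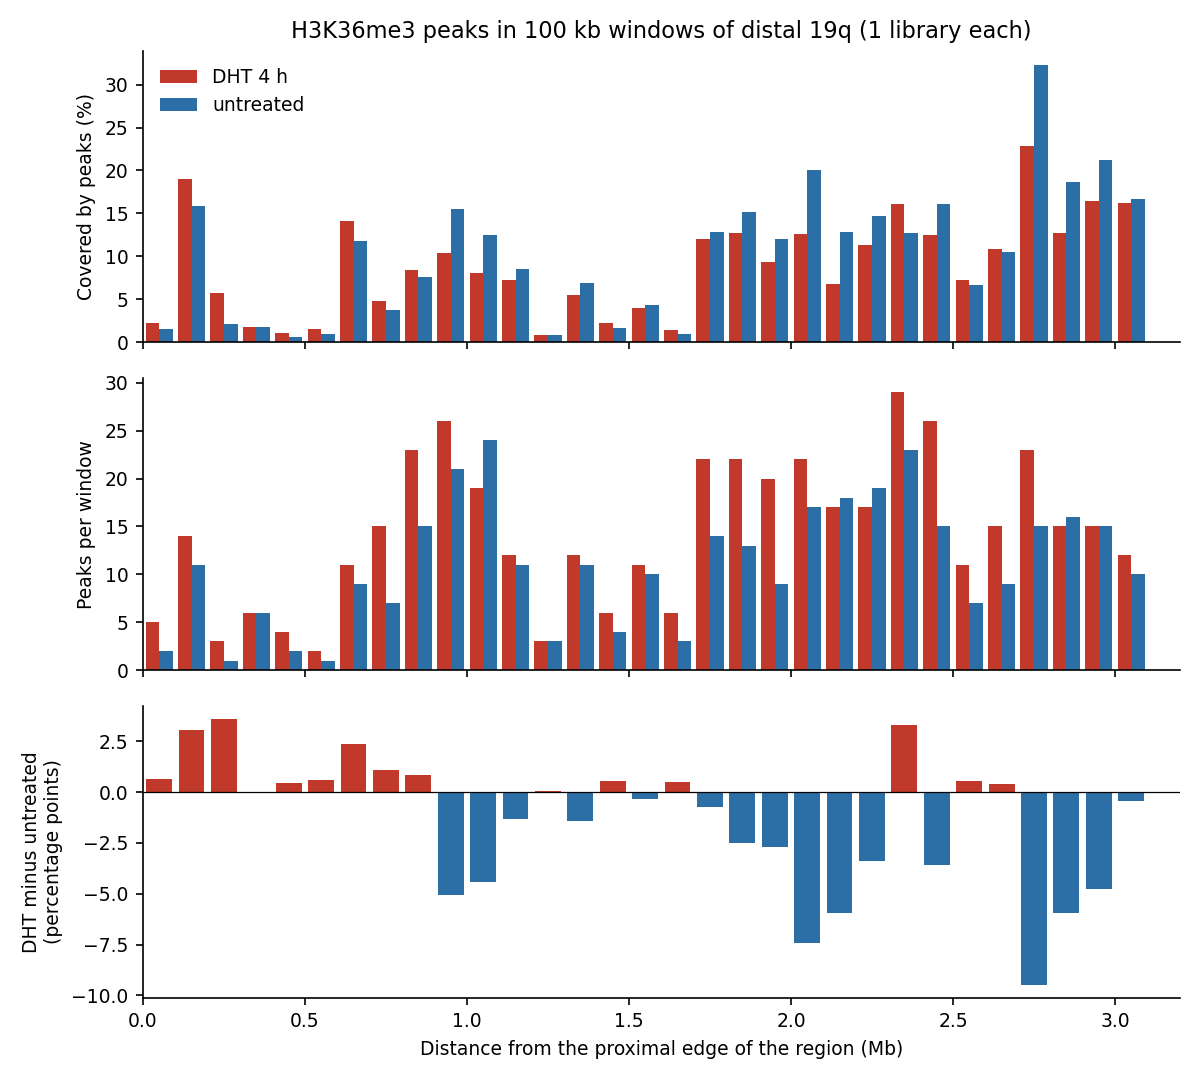
Bars give the percentage of each 100 kb window covered by peaks (top), the number of peaks touching it (middle), and the difference in coverage, DHT minus untreated (bottom), along the distance from the proximal edge of the region in Mb. Coverage is lower after DHT in most windows beyond 0.9 Mb, a position chosen after the windows had been seen. The largest difference, -9.47 points, is in the most covered window.

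A rule of size was applied to windows in which 10 kb or more lay under peaks of either list, and counted those whose coverage differed by at least 1.5-fold. The region had 17 windows with that much covered, of which 0 were higher after DHT and 3 lower by at least 1.5-fold. Of the 17, 14 had 10 kb covered in both libraries and 3 only in untreated cells, so these 3 entered through the library in which they are high and had to be lower after DHT. Over the genome, 14.4% of 2195 such windows passed the rule as higher and 5.38% as lower, and in the rest of 19q 13 of 77 were higher and 3 lower. Of those 77, 17 reached 10 kb only after DHT and 7 only in untreated cells. The 3 lower windows of the region start at 57000001, 58000001 and 58100001, with ratios of DHT over untreated of 0.646, 0.630 and 0.535. The first and the third of them are among the windows of the region that entered through untreated coverage alone. Over the 14 windows covered in both libraries, 0 were higher and 1 was lower by at least 1.5-fold. In the rest of 19q 4 of 53 such windows were higher and 1 lower, and over the genome 5.84% and 1.48% of 1352. These counts are too small to read against the genome. Without a fold limit, 10 of the 14 were less covered after DHT, or 71.4%, against 37.7% of 53 such windows in the rest of the arm and 47.3% over the genome. The median ratio in the 14 windows was 0.807, against 1.05 in the rest of the arm and 1.01 over the genome.

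Direction was also counted on either side of 56900000, a position chosen after the windows had been seen, where their sign turns. The counts and ratios of the stretches therefore describe the pattern that set the division and do not support it. From the edge of the region to that position, 8 of 9 windows were more covered after DHT. Covered length there was 58.7 kb after DHT and 46.1 kb in untreated cells, a ratio of 1.27 (0.788 to 2.06). From 56900001 to the end of the chromosome, 6 of 22 windows with peaks were more covered after DHT and 16 less. Covered length was 219.9 kb after DHT and 274.0 kb in untreated cells, a ratio of 0.802 (0.654 to 0.984). The intervals of the 2 length ratios overlap. The number of peaks was higher after DHT in both stretches, at 83 against 53 in the first and 358 against 283 in the second, where 1 untreated peak and 1 DHT peak touch both stretches. The megabase from 58000001 to 59000000 had the most peaks, 188 after DHT and 150 in untreated cells. It held 5 of the 15 DHT peaks of at least 2 kb and 20 of the 33 untreated ones. Median width there was 574 bp after DHT and 868 bp in untreated cells.

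Stretches without a peak in either library were few. There were 2 of at least 50 kb, from 56223361 to 56303369 (80.0 kb) and from 56498327 to 56590971 (92.6 kb). Both lay in the proximal stretch. Together they made up 5.52% of the region. The last peak of the region ended at 59095104 in the DHT list, at a width of 1238 bp, and at 59095693 in the untreated list, at a width of 1832 bp. At the proximal edge no peak crossed the limit. The first DHT peak inside began at 56011895 and the first untreated peak at 56072287, and the last peaks outside ended at 55998911 after DHT and at 55998880 in untreated cells.

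The region held 156 blocks after peaks from either list had been merged across gaps of up to 5 kb, and of these 33 were at least 10 kb long. These 33 made up 20.6% of the region, against 13.8% of the rest of 19q for its 192 such blocks, and all 33 held peaks of both libraries. They held 50.7% of the DHT peaks and 51.6% of the untreated peaks of the region. Of the 123 shorter blocks, 31 held DHT peaks only, or 25.2%, and 10 untreated peaks only, or 8.13%. The corresponding shares were 27.7% and 17.6% of 823 shorter blocks in the rest of 19q, and 30.4% and 23.98% of 57946 over the genome. The longest block, 44687 bp from 58482954 to 58527640, held 8791 bp of peaks after DHT and 11818 bp in untreated cells, in 13 and 9 peaks. It also held the highest-scoring DHT peak of the region.

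The second longest block held many short DHT peaks beside few wide untreated ones. From 58740774 to 58774864, a length of 34091 bp, 13 DHT peaks covered 13857 bp and 4 untreated peaks covered 13220 bp. The widest was 3292 bp after DHT and 7198 bp in untreated cells. The next 3 blocks by length lay from 57755132 to 57786665, from 56899944 to 56930957 and from 57109495 to 57140365. They held 5414, 5793 and 6654 bp after DHT and 6227, 5394 and 7871 bp in untreated cells. In each the DHT library had more peaks, 10, 13 and 11 against 7, 9 and 9.

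Of the 33 blocks, 16 had 5 kb or more under peaks of either list, and 0 of them had a 2-fold or larger excess of coverage after DHT and 1 a deficit of that size. Over the genome 8.07% of 2676 such blocks were higher by this rule and 2.73% lower. Of 97 such blocks in the rest of 19q, 10 were higher and 5 lower. The 1 block lay from 58796106 to 58813152, with 3484 bp covered after DHT and 10625 bp in untreated cells, a ratio of 0.328, in 3 peaks each. It reached 5 kb only in untreated cells, so it entered through the library in which it is high, and among the 11 blocks with 5 kb in both libraries 0 differed by 2-fold in either direction. Its untreated peaks included that of 2943 bp from 58810210 to 58813152, the widest untreated peak of the region with no DHT peak. It also held the highest-scoring DHT peak with no untreated peak, 1469 bp from 58801994 to 58803462 with a score of 332.4. Across the 16 blocks the median ratio was 0.857, against 1.08 in the rest of 19q and 0.975 over the genome. Of these 16, 2 reached 5 kb only after DHT and 3 only in untreated cells. More peaks after DHT were found in 10 of the 16, in 65 of 97 in the rest of 19q and in 1717 of 2676 over the genome, which are similar shares.

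**Figure D4:**
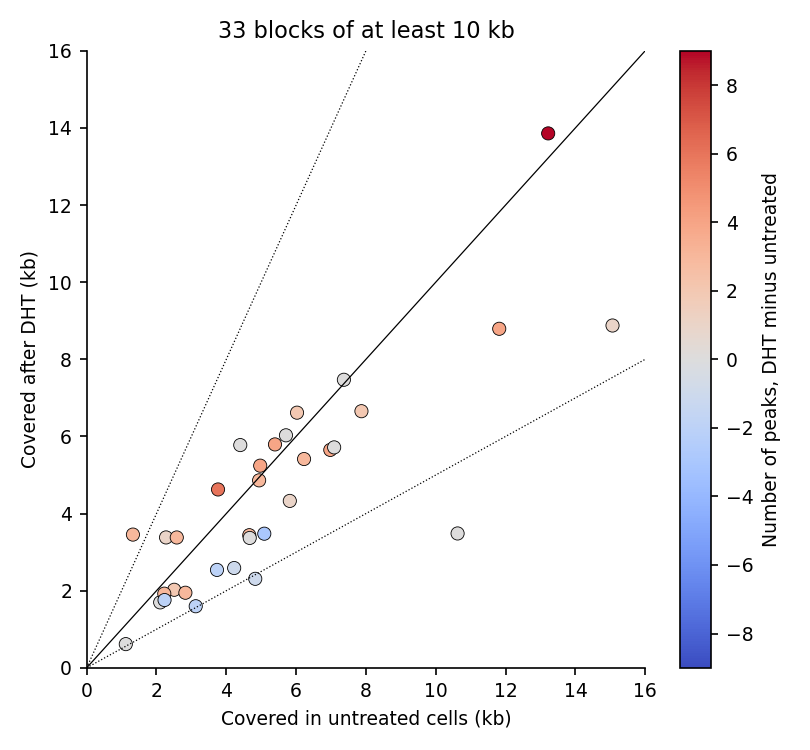
Each point is a block of at least 10 kb made by joining peaks of both libraries, at the length covered after DHT (vertical axis, kb) and in untreated cells (horizontal axis, kb). Colour gives the difference in peak number, DHT minus untreated. The solid line marks equal coverage and the dotted lines a 2-fold difference, and the block with 3484 bp after DHT and 10625 bp in untreated cells lies below the lower dotted line.

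Scores, the authors' value for each peak, were used within each list only. The median score of the region's peaks stood at percentile 52.4 of the DHT list and at percentile 63.8 of the untreated list, and peaks in the rest of 19q stood at 49.1 and 52.9. Peaks among the highest-scoring 10% of their list numbered 75 of 440 after DHT, or 17.0% (13.8% to 20.8%), and 81 of 335 in untreated cells, or 24.2% (19.9% to 29.0%). The shares in the rest of 19q were 10.6% after DHT and 11.9% in untreated cells. The 5 highest scores ran from 621.2 to 1016 after DHT and from 723.0 to 1096 in untreated cells, and all 10 peaks were overlapped by the other library. The first in the DHT list, 2120 bp from 58510128 to 58512247 with 1016, lay wholly within an untreated peak of 2211 bp that scored 720.6 in its own list. The first in the untreated list, 1761 bp from 57801835 to 57803595 with 1096, was covered over 93.6% by 2 DHT peaks.

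Of the DHT peaks of the region, 239 or 54.3% (49.6% to 58.9%) were overlapped by an untreated peak, and 208 or 62.1% (56.8% to 67.1%) of the untreated peaks by a DHT peak. The shares in the rest of 19q were 51.7% (49.7% to 53.6%) and 60.6% (58.5% to 62.8%). The intervals of the region and of the rest of the arm overlap in both libraries. Over all nuclear chromosomes the shares were lower, 48.5% and 52.3%. Sequence covered in both libraries came to 163.5 kb, in DHT alone to 115.0 kb and in untreated cells alone to 156.6 kb. Overlapped peaks were wider, with medians of 579 against 365 bp after DHT and 957 against 420 bp in untreated cells. The rest of 19q had 590 against 389 bp and 713 against 370 bp, and all nuclear chromosomes 410 against 328 bp and 479 against 317 bp. A wide peak is more readily met at 1 bp, so the overlap rule itself favours this order. The highest-scoring untreated peak without a DHT peak, 2096 bp from 58231289 to 58233384, scored 538.2, at percentile 99.7 of its list.

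Compared over stretches of equal length, the region had the lowest ratio of covered length on 19q. The other 9 stretches, counted from the region towards the centromere, had ratios of DHT over untreated of 1.01 to 1.25, against 0.870 here. The number ratio of the region, 1.31, lay within the range of the other 9, 1.16 to 1.37. Stretches of this length were also taken at the ends of all chromosomes, at the short arm only where a first peak lies within 1 Mb. Short arm stretches began at the chromosome start. The other long arm stretches ended at the last peak of the chromosome, while the region runs to the chromosome end, so the ends were not delimited alike. Among these 41 ends the region ranked 10th by covered sequence after DHT and 2nd in untreated cells. Its length ratio was the 3rd lowest, above those of the long arms of chromosomes 4 (0.752, with 25.4 kb after DHT and 33.7 kb in untreated cells) and Y (0.776, with 3.11 kb and 4.01 kb). The 40 other ends had a median ratio of 1.22, and 6 of them were below 1. Besides chromosomes 4 and Y, these were the short arms of chromosomes 9 (0.888), 20 (0.912), 18 (0.958) and 6 (0.991). At the short arm end of chromosome 20, peaks covered 129.9 kb after DHT and 142.5 kb in untreated cells. Its peaks of at least 2 kb covered 6.73 kb and 34.2 kb, so less sequence under wide peaks after DHT was not particular to the region. The ranks describe 2 libraries and have no test.

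**Figure D5:**
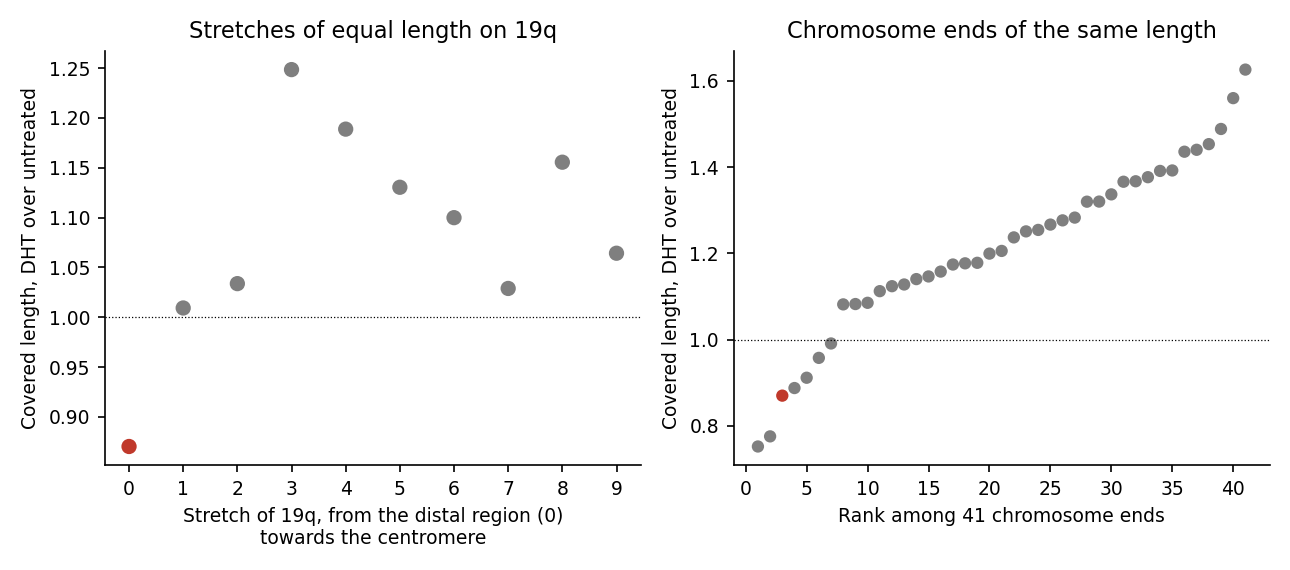
The ratio of covered length, DHT over untreated, is plotted for 10 stretches of 19q of 3.13 Mb, with the distal region as stretch 0 (left), and for 41 chromosome ends of the same length in order of their ratio (right). The region is the red point at 0.870 in both plots.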

How the data were processed

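Chromatin immunoprecipitation sequencing was done on LNCaP cells with and without DHT, 1 library each. Per the labels' protocols, libraries were started from 5 ng of DNA. The deposited lists give start and end of each peak and a score in hg19, per the file names. The authors' caller was MACS, going by the names of the peaks in the deposited lists. Its version, settings and control, the aligner and the depth of the libraries are not stated. The score's scale is not stated. A caller can break 1 broad domain into several peaks, so peak number and width also depend on its threshold and on depth, whose part was not tested.

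Coverage, overlap (at least 1 bp), joining and windows were computed with NumPy 2.4.6, pandas 2.3.3 and SciPy 1.17.1 in Python 3.11.15, and overlap counts equalled those of bedtools 2.31.1. Figures were drawn with Matplotlib 3.10.9. Functions were tested on simulated data, where 6 of 6 known answers were recovered. Each simulated list was drawn as 4000 intervals with overlapping ones merged, and the check of window calls used simulated window values. Shares carry Wilson intervals, ratios of peak numbers exact binomial ones, and ratios of covered length take the sum of squared widths as variance. Named items are the 5 most covered windows of each library, the 5 largest rises and falls, windows past 1.5-fold, the 5 widest and 5 highest-scoring peaks (in part by range), the 5 longest blocks, blocks past 2-fold, and gaps of at least 50 kb. Unmatched peaks were named after their values were seen. The region, rules and lists were chosen with earlier results of these data known. Peaks on mitochondrial DNA were left out. Planned results on genes were not computed, since no annotation of hg19 was at hand.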

Additional observations from a re-analysis of the deposited data

How the results depend on the processing

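The number ratio of the region, 1.31, was 1.13 in the higher-scoring 50% of each list and 1.14 to 1.36 under the other 4 settings. The ratio of median widths, 0.668, was 0.598 to 0.670 under 3 settings added after seeing the data and reversed to 1.08 joined at 5 kb. The length ratio, 0.870, was 0.734 to 0.966 under 4 settings. It reversed to 1.20 when each list was joined at 5 kb, which counts the gaps bridged between peaks as covered. The 0.966, close to equal coverage, was found without the most covered 1 Mb, from 58000001 to 59000000. Peaks there covered 129.6 kb after DHT and 165.9 kb in untreated cells. The region's length ratio over that of the rest of 19q, 0.797, was 0.718 to 0.924 under 4 settings. Leaving out the most covered 1 Mb was not among these 4. Coverage over that of the rest of 19q in untreated cells, 1.83, was 2.22 in the higher-scoring 50%.

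Windows of the region higher and lower after DHT, 0 and 3, were 0 and 0 at 2-fold, 1 and 3 with at least 5 kb covered, 0 and 5 in windows of 50 kb, 0 and 1 in windows of 200 kb, 0 and 5 with the lists trimmed to one covered length, 1 and 8 among the higher-scoring 50%, 5 and 1 joined at 5 kb, and 0 and 1 with 10 kb covered in both libraries, the last pair of settings added after seeing the data. Untreated peaks overlapped, 62.1%, were 49.0% where at least 50% of the peak had to be covered and 71.7% joined at 1 kb. Blocks of at least 10 kb, 33, were 3 when joined at 2 kb, and those 2-fold higher and lower, 0 and 1, were 1 and 0 joined at 10 kb and 0 and 0 with 5 kb covered in both libraries, also added. The causes of these moves were not tested. No paired analysis was possible because each condition has 1 library, and none could be left out. Sequencing depth, which is not given, limits which narrow or weak peaks could be found.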
